A study of Mus musculus with 32 samples.

Results

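The 10 genes described here are Egr1, Egr2 and Egr3, the zinc finger transcription factors of the EGR family, Nr4a1, Nr4a2 and Nr4a3, the orphan nuclear receptors of the NR4A family, Myc, and the immediate early response genes Ier2, Ier3 and Ier5. They were chosen by symbol, 1 entry each, from the 22216 genes measured in every library, and all 10 were among the 11154 genes that reached 1 RPKM in at least 4 of the 32 libraries. RPKM is a read count scaled to transcript length and to the size of the library. The study followed dendritic cells grown from C57BL/6 mouse bone marrow with GM-CSF and matured with bacterial lipopolysaccharide (LPS, 1 µg/mL), to compare cells that lack 2 immunoproteasome subunits with cells that have them. The groups were dKO cells (Lmp7-/-Mecl1-/-, lacking both copies of Psmb8 and Psmb10) and WT cells, each without LPS (0 h) and after 1, 2 and 6 h of LPS, with 4 replicates in each of the 8 groups. The labels call the replicates experimental and do not say whether they came from separate mice, so a p-value here is set against library-to-library variation alone, some of which may be technical.

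Immediate early genes are transcribed within minutes of a stimulus without new protein synthesis, because the factors that switch them on, such as serum response factor, CREB and NF-kappaB, are already present and are activated by phosphorylation or release. Their mRNAs are mostly short-lived, so a burst of transcription gives a peak that is soon lost. EGR proteins bind GC-rich promoter sites and have the corepressors Nab1 and Nab2, and NR4A receptors act without a known classical ligand. MYC drives growth and ribosome production with its partner MAX, and the IER proteins regulate survival, stress and signalling. In myeloid cells LPS reaches these genes through Toll-like receptor 4 and the MAP kinase and NF-kappaB pathways.

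The libraries held 1.27 to 1.87 Gb of what appears to be aligned sequence, and the number of reads behind a value is unknown. Psmb8 was at most 7.42 RPKM in dKO libraries, against at least 150.3 RPKM in WT libraries, and Psmb10 was at most 17.1 RPKM, against at least 41.6 RPKM. Of 8 dendritic cell markers the antigen presentation gene Cd74 had the highest median over all libraries, 7551 RPKM, and Itgax had 395 RPKM. Zbtb46 and Flt3 were the lowest, at medians of 11.9 and 0.526 RPKM. The 5 macrophage markers had medians from 45.4 RPKM (Mertk) to 526 RPKM (Cd14), and the summed lymphocyte markers were at no more than 4.61 RPKM. In 5 of the 16 dKO libraries the tested genes other than the 10 lay nearest to WT cells at another LPS time than the label gives. These were replicate 2 at 0 h (nearest to 1 h), replicate 2 at 1 h (nearest to 2 h), replicate 2 at 2 h (nearest to 0 h), replicate 4 at 2 h (nearest to 6 h) and replicate 4 at 6 h (nearest to 2 h). Their correlation with WT cells at their labelled time was 0.823 to 0.946. It was 0.972 to 0.980 for the other 11 dKO libraries and 0.994 to 0.996 for WT libraries. For the 5, the correlation with WT cells at their nearest time was 0.967 to 0.977. Within replicates 2 and 4 their nearest times were their labelled times in another order. Il6 had 1124 RPKM in replicate 2 at 0 h, against at most 2.04 RPKM in the other dKO libraries at 0 h. In replicate 2 at 2 h it had 1.67 RPKM, against 1641 and 1572 RPKM in replicates 1 and 3. Psmb8 was low in all 5, as their genotype label says, and they are called the mismatched libraries below. Over all libraries each dKO group thus mixes libraries nearest to different LPS times. Whether labels were exchanged was not tested. The values come from all 32 libraries unless stated, and a second set without the 5, chosen after the data were seen, leaves 3, 3, 2 and 3 dKO libraries at 0, 1, 2 and 6 h.

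The promoters of 3 members are shown because they carry different motifs of the pathways named above: a CArG box, the site of serum response factor, in Egr2, repeats of TGACG, the core of the cAMP response element, in Nr4a1, and an NF-kappaB site in Ier3. Each run is the 250 bases before the transcription start in RefSeq on GRCm38.p6, all on the + strand: chr10:67537619-67537868 for Egr2, chr15:101266596-101266845 for Nr4a1 and chr17:35821463-35821712 for Ier3. Capitals mark the motifs.
Egr2: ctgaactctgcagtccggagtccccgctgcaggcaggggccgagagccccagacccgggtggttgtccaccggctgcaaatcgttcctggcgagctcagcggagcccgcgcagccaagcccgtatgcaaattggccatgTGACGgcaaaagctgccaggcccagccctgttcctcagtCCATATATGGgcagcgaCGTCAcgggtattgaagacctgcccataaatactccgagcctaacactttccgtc
Nr4a1: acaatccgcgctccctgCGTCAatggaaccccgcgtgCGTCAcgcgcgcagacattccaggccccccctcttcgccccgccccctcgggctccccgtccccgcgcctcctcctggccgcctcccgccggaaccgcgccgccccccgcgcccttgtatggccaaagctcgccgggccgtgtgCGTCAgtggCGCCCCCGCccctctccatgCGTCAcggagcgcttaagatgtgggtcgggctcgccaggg
Ier3: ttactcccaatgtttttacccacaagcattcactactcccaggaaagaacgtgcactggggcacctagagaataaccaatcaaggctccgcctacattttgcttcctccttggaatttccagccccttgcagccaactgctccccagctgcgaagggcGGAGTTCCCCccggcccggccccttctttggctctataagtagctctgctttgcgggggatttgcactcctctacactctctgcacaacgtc
In Egr2 the CArG box begins at -72 from the start and TGACG, which reads CGTCA on the other strand, at -111 and -55. In Nr4a1 TGACG begins at -233, -213, -69 and -40, and the EGR site GCGNGGGCG at -60. In Ier3 the NF-kappaB site begins at -92. Both strands were searched, and none of the matches shown overlaps another. Of 32536 mouse promoter windows of the same length, 1.48% held a CArG box, 17.85% at least 1 TGACG, 0.138% at least 4, 4.74% an EGR site and 3.92% an NF-kappaB site, the CArG and NF-kappaB sites being searched by their consensus. RefSeq windows for Nr4a2 and Nr4a3 also held 4 TGACG each, that of Nr4a2 with an EGR site at -74, and that of Ier5 held none of the motifs, while the windows of Egr1, Egr3, Myc and Ier2 were not searched. The annotated spans of Nr4a2 and Nr4a3 differ between RefSeq and the files by 396 and 9038 bases. A match is a description of these letters and not of binding.

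The other sequence shown is the AU-rich element TATTTAT, the core of the site bound by the mRNA decay factor tristetraprolin (Zfp36), in the 3' untranslated region (UTR). It was found in 3 of the 10 members, in the GENCODE vM21 transcripts, and the first site in each is given with 9 flanking bases on either side and TATTTAT in capitals.
Ier3: tctaattaaTATTTATgtatttatg
Nr4a3: ctttgcctgTATTTATtgcaagacc
Nr4a2: ttttgtgccTATTTATgaataaata
Ier3 held 4 such sites, Nr4a3 2 and Nr4a2 1, and the other 7 members none. The share of 3 in 10 members is near that of all genes. Of the 9770 tested genes with a matched 3' UTR 30.0% held at least 1, 10.6% at least 2 and 1.45% at least 4. The shorter pentamer ATTTA was densest in Ier3 at 8.16 per kilobase, followed by Nr4a1 at 5.53 and Myc at 4.29, against a median of 1.31 over the matched genes. It was absent from Ier2.

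In WT cells most of these genes peaked 1 h after LPS and were down again by 2 h. At 1 h Nr4a1, Egr3, Nr4a3, Nr4a2 and Ier5 rose, by up to 33.9-fold for Nr4a1, and Myc fell, 3.01-fold lower. Between 1 and 2 h Egr2, Egr1, Egr3, Nr4a1, Ier2, Ier3 and Myc fell, by 15.7-fold for Egr2 and 13.5-fold for Egr1. By 6 h Egr1, Egr2, Egr3, Myc and Ier2 stood below their level before LPS, while Nr4a2, Nr4a3 and Ier5 stood above it. Folds and log2 changes, given as LPS over 0 h or later over earlier time ± standard error, are on the log2(RPKM + 0.5) scale, which understates the change of genes below about 1 RPKM. The test is limma with Benjamini-Hochberg adjustment over the 11154 genes of each comparison.

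At 1 h in WT cells 5 of the 10 members were higher and 1 lower, where 6.84% of all tested genes were higher and 45.5% lower, 52.3% in all. At 2 h 2 members were higher and 5 lower, where 11.2% of genes were higher and 68.5% lower, 79.7% in all. At 6 h 3 members were higher and 5 lower, against 14.9% and 60.9% of genes, 75.8% in all. The low share of higher genes goes with a shift of the whole distribution: the median log2 change of all tested genes was -0.42 at 1 h, -0.73 at 2 h and -0.65 at 6 h in WT cells, and within 0.1 of 0 after median-of-ratios scaling. Of the genes called at 1 h in WT cells 13.1% were higher, against 53.7% with median-of-ratios scaling and 39.6% with quantile normalization; the shares at 2 h were 14.1%, 49.7% and 39.4%, and at 6 h 19.7%, 49.1% and 45.3%. With median-of-ratios scaling 7 members were called higher and 1 lower at 1 h in WT cells. The counts were 4 and 4 at 2 h, and 4 and 5 at 6 h. With that scaling 1694 of all 11154 tested genes were higher and 1458 lower at 1 h. At 2 h 3424 were higher and 3471 lower, and at 6 h 3641 and 3770.

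Over the interval from 1 to 2 h in WT cells 7 members were lower and none higher, where 25.6% of genes were lower and 7.24% higher, with a median of -0.30. Of the genes called over that hour 22% were higher, against 46.2% with median-of-ratios scaling and 48.1% with quantile normalization. From 2 to 6 h 1 member was higher and 3 lower, where 26.1% of genes were higher and 19.5% lower. A fit of the WT libraries alone, added after the data were seen, is free of the spread of the mismatched dKO libraries and called more. It called 7 members higher and 1 lower at 1 h (11.2% and 69.4% of genes), 1 higher and 9 lower from 1 to 2 h (14.7% and 57.9%), and 3 higher and 6 lower from 2 to 6 h (42.9% and 32.1%).

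In dKO cells Egr3, Nr4a1, Nr4a2, Nr4a3 and Ier5 were higher and Myc lower at 1 h, 5 and 1 of the 10, where 5.82% of genes were higher and 44.1% lower, 49.9% in all. At 2 h 2 were higher and 4 lower (9.17% and 53.8% of genes, 62.9% in all). At 6 h 3 were higher and 5 lower (14.7% and 60.2%, 74.9% in all). From 1 to 2 h 3 members were lower, where 0.61% of genes were lower and 1.56% higher, 2.17% in all. This count ran between 0 and 6 when 1 library was left out. It was 0 without replicate 1, 3 or 4 at 1 h or replicate 3 or 4 at 2 h of dKO, 5 without replicate 2 at 0 h or at 1 h, and 6 without replicate 2 at 2 h. The share of all genes moved with it: none was called in those leave-outs that gave 0 members, 5.75% and 10.9% in those that gave 5, and 36.1% in the one that gave 6. From 2 to 6 h no member was called (3 had an unadjusted p under 0.05), nor was any other of the 11154 genes, and 3 and 4 members were called without dKO replicate 4 at 2 h and at 6 h, where 37.3% and 31.01% of all genes were called. Without the 5 mismatched libraries the dKO counts were 7 higher and 1 lower at 1 h (9.49% and 67.8% of genes), 1 and 8 from 1 to 2 h (14.5% and 49.5%) and 3 and 6 from 2 to 6 h (37.2% and 30.1%). Of the dKO genes called in all libraries 11.7% were higher at 1 h, 14.6% at 2 h and 19.6% at 6 h. The shares were 53.5%, 54.3% and 48.4% with median-of-ratios scaling, and 39.4%, 42.8% and 43.3% with quantile normalization.

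**Figure D1:**
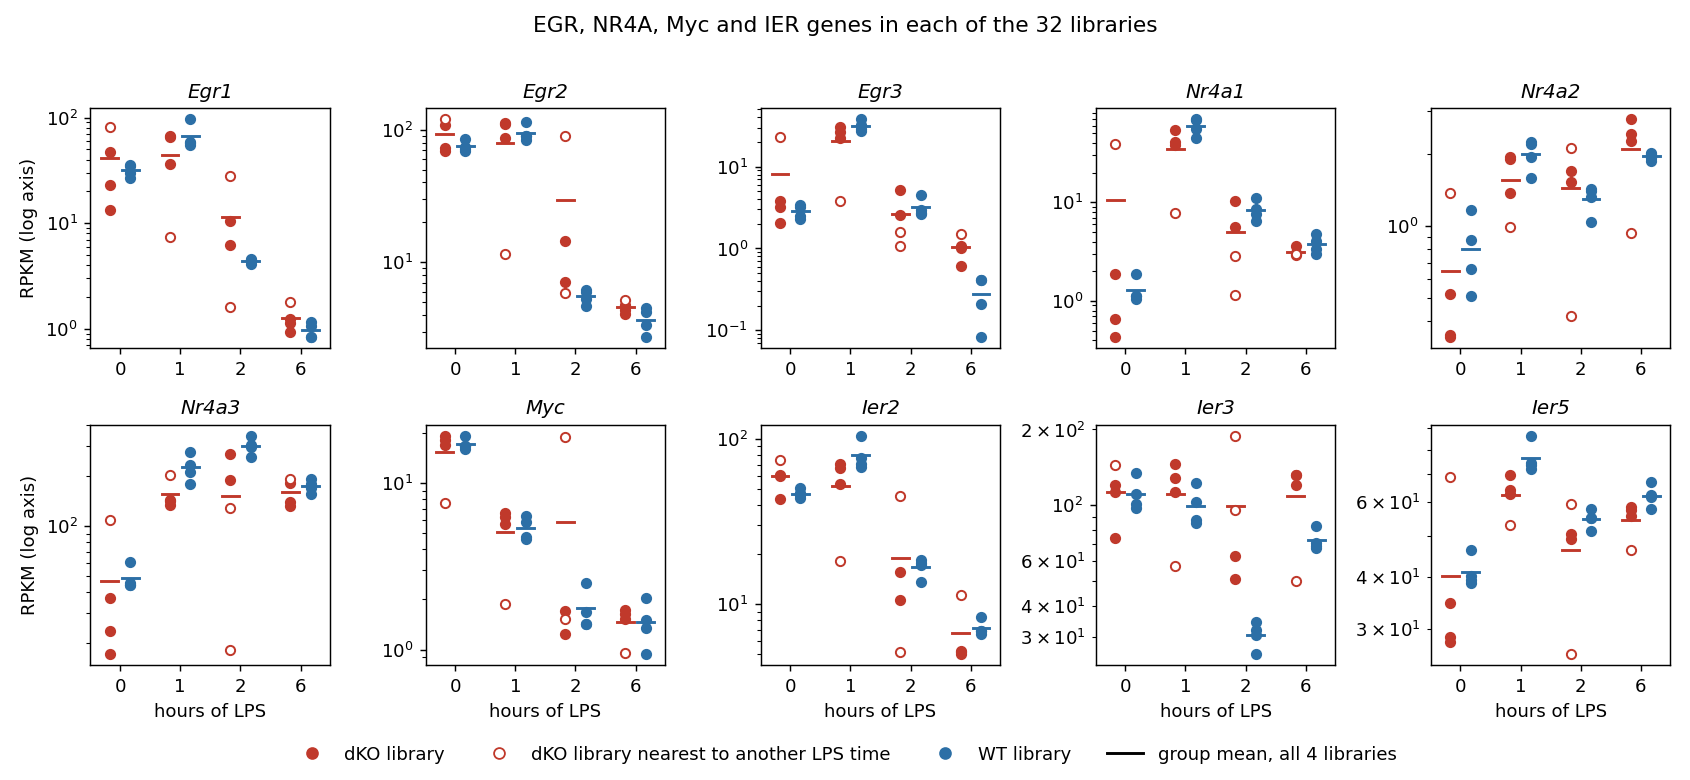
RPKM (log axis) of each member in each of the 32 libraries by hours of LPS, with dKO libraries in red left of WT libraries in blue, open red circles for the 5 mismatched dKO libraries and bars for the mean of all 4 libraries of a group. WT libraries lie close together at each time, for example 4.12 to 4.56 RPKM for Egr1 at 2 h, while the open circles account for most of the wide dKO groups.

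Before LPS the members covered a wide range of levels. In WT cells Ier3 was the most abundant at 111 ± 16.6 RPKM (mean ± SD, n = 4), followed by Egr2 at 74.7 ± 7.17, Nr4a3 at 48.7 ± 8.13, Ier2 at 46.7 ± 2.69, Ier5 at 41.1 ± 3.48, Egr1 at 31.7 ± 4.12 and Myc at 17.1 ± 1.39 RPKM. Egr3 at 2.84 ± 0.513, Nr4a1 at 1.28 ± 0.385 and Nr4a2 at 0.799 ± 0.281 RPKM were low. The libraries of Nr4a3, Ier2 and Ier5 overlapped, so their order is not resolved, as did those of Nr4a1 and Nr4a2, whereas the 4 libraries of Myc lay below all those of Egr1 and above all those of Egr3. Values of single libraries are given below in the order of replicates 1 to 4, so in dKO cells the mismatched libraries are replicate 2 at 0 h and at 1 h, replicates 2 and 4 at 2 h, and replicate 4 at 6 h.

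Egr1, the founding EGR factor, and Egr2, a factor known from myeloid and lymphoid differentiation, were already expressed before LPS, and their course was marked by the fall after 1 h. In dKO cells Egr1 had 46.9, 80.7, 23.0 and 13.5 RPKM at 0 h and 36.3, 7.42, 66.6 and 65.2 RPKM at 1 h. Egr1 then had 10.5, 27.8, 6.18 and 1.61 RPKM at 2 h and 1.23, 1.13, 0.941 and 1.81 RPKM at 6 h. The mismatched library at 1 h lay with the matching 2 h libraries, and replicate 2 at 2 h with the 0 h libraries. In WT cells Egr1 had 35.3, 26.7, 34.8 and 29.8 RPKM at 0 h and 57.8, 96.3, 55.5 and 59.3 RPKM at 1 h. Egr1 then had 4.52, 4.12, 4.56 and 4.39 RPKM at 2 h and 0.831, 1.07, 0.8291 and 1.15 RPKM at 6 h. WT libraries overlapped between none of the times, with the highest values at 1 h and the lowest at 6 h. In WT cells Egr1 averaged 67.2 ± 19.5 RPKM at 1 h, against 31.7 ± 4.12 RPKM at 0 h (SD, n = 4). The difference was not called over all libraries (1.04 ± 0.58, adjusted p = 0.125) and was called in WT libraries alone (SE 0.14, adjusted p = 2.77e-06). It then fell to 4.40 ± 0.195 RPKM at 2 h (SD, n = 4; -3.75 ± 0.58, adjusted p = 0.000135 against 1 h) and to 0.971 ± 0.167 RPKM at 6 h (-1.74 ± 0.58, adjusted p = 0.0164 against 2 h). The 6 h level was 3.07% of that before LPS (-4.45 ± 0.58, adjusted p = 3.45e-07), the fifth lowest log2 change of all tested genes.

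In dKO cells Egr2 had 109, 119.9, 73.2 and 69.4 RPKM at 0 h and 86.8, 11.5, 109.6 and 112 RPKM at 1 h. Egr2 then had 14.5, 90.1, 7.04 and 5.82 RPKM at 2 h and 4.40, 4.79, 4.05 and 5.17 RPKM at 6 h. The mismatched libraries stood apart at 1 h, with 11.5 RPKM, and at 2 h, with 90.1 RPKM in replicate 2. In WT cells Egr2 had 85.0, 68.6, 73.7 and 71.6 RPKM at 0 h and 89.3, 115, 83.5 and 89.9 RPKM at 1 h. Egr2 then had 6.23, 5.99, 5.29 and 4.67 RPKM at 2 h and 4.50, 4.19, 3.35 and 2.71 RPKM at 6 h. WT libraries at 0 and 1 h were nearly separate, with 85.0 RPKM as the highest at 0 h and 83.5 RPKM as the lowest at 1 h, and all were far above any at 2 h. The difference at 1 h was 0.33 ± 0.57, adjusted p = 0.629 over all libraries and adjusted p = 0.0259 in WT libraries alone. From 1 to 2 h Egr2 fell by 3.97 ± 0.57 on the log2 scale (adjusted p = 7.35e-05), to 7.42% of its level before LPS, the steepest fall of all 11154 tested genes in WT cells. Egr1 and Egr3 came next in that order, then Trib1, a pseudokinase scaffold (-2.996), and Nr4a1. The further difference to 6 h was not called over all libraries (-0.54 ± 0.57, adjusted p = 0.445) but was in WT libraries alone (-0.54 ± 0.13, adjusted p = 0.000967).

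Egr3, a close relative of Egr2, was scarce before LPS and had the largest first-hour change of the family. In dKO cells Egr3 had 3.78, 23.2, 3.17 and 2.03 RPKM at 0 h and 30.1, 3.82, 22.7 and 26.5 RPKM at 1 h. Egr3 then had 5.20, 1.61, 2.57 and 1.06 RPKM at 2 h and 0.618, 1.06, 1.02 and 1.49 RPKM at 6 h. The mismatched 0 h library, at 23.2 RPKM, lay with the matching 1 h libraries. In WT cells Egr3 had 3.19, 2.52, 3.36 and 2.29 RPKM at 0 h and 32.7, 38.0, 29.0 and 27.1 RPKM at 1 h. Egr3 then had 2.94, 4.54, 2.66 and 2.68 RPKM at 2 h and 0.210, 0.411, 0.407 and 0.0817 RPKM at 6 h. In WT cells the 1 h libraries were at least 27.1 RPKM and all others at most 4.54 RPKM. Egr3 rose 9.64-fold at 1 h in WT cells (3.27 ± 0.52, adjusted p = 8.61e-05) and fell by 3.13 ± 0.52 to 2 h (adjusted p = 0.000288). It fell again to 6 h (-2.25 ± 0.52, adjusted p = 0.00139), when it stood at 9.76% of its mean before LPS (-2.11 ± 0.52, adjusted p = 0.00073 against 0 h). With quantile normalization that difference from 0 h lost its call in both genotypes (-1.06, adjusted p = 0.11 in dKO and -1.25, adjusted p = 0.0584 in WT). In dKO cells it rose at 1 h (1.61 ± 0.52, adjusted p = 0.016), a call lost without replicate 1, 3 or 4 at 0 h or replicate 1 at 1 h (adjusted p 0.0529 to 0.0784). Without the 5 mismatched libraries the rise was 2.97 ± 0.23, adjusted p = 3.92e-11.

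In the 11 matching dKO libraries Egr1 and Egr3 rose at 1 h and all 3 EGR genes fell to 2 h. Without the 5 libraries Egr1 rose at 1 h in dKO cells (1.13 ± 0.29, adjusted p = 0.00114) and fell to 2 h (-2.67 ± 0.32, adjusted p = 1.64e-07). Egr2 differed at 1 h by 0.31 ± 0.20, adjusted p = 0.155 (-0.60 ± 0.57, adjusted p = 0.366 over all libraries) and fell to 2 h (-3.27 ± 0.22, adjusted p = 9.32e-12). Egr3 fell to 2 h (-2.68 ± 0.26, adjusted p = 4.11e-09). Over all libraries the dKO fall to 2 h was called for Egr3 only (-2.62 ± 0.52, adjusted p = 0.0239), while that of Egr1 was -2.05 ± 0.58, adjusted p = 0.0559 and that of Egr2 -1.91 ± 0.57, adjusted p = 0.0706. Without dKO replicate 1, 3 or 4 at 1 h or replicate 3 or 4 at 2 h the adjusted p of Egr3 was 0.0584 to 0.171. Egr1 was called in 5 leave-outs (dKO replicate 2 at 0, 1 or 2 h, replicate 1 at 2 h or replicate 4 at 6 h; adjusted p 0.00124 to 0.0485) and Egr2 in 3 (replicate 2 at 0, 1 or 2 h; 0.000326 to 0.0474).

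In WT cells Nr4a1 rose in the first hour and fell in the second, Nr4a3 rose and was called above its 0 h level at all later times, and Nr4a2 stayed at low levels; members were not tested against each other. In dKO cells Nr4a1 had 1.87, 38.9, 0.426 and 0.662 RPKM at 0 h and 53.9, 7.76, 40.9 and 37.8 RPKM at 1 h. Nr4a1 then had 10.4, 1.15, 5.57 and 2.89 RPKM at 2 h and 3.61, 3.04, 2.89 and 2.98 RPKM at 6 h. The mismatched library at 0 h reached 38.9 RPKM, among the matching 1 h libraries, while that at 1 h had 7.76 RPKM. In WT cells Nr4a1 had 1.11, 1.04, 1.86 and 1.12 RPKM at 0 h and 69.7, 68.9, 56.0 and 45.2 RPKM at 1 h. Nr4a1 then had 7.62, 11.2, 8.47 and 6.45 RPKM at 2 h and 3.37, 4.82, 4.09 and 2.97 RPKM at 6 h. WT libraries did not overlap between any times, with 1.04 to 1.86 RPKM at 0 h and 45.2 to 69.7 RPKM at 1 h. Nr4a1 rose 33.9-fold at 1 h in WT cells (5.08 ± 0.72, adjusted p = 3.5e-05), the largest rise of the 10 and the 27th highest of all tested genes, of which Ifnb1 and Il6 led with 9.53 and 8.69. It then fell (-2.76 ± 0.72, adjusted p = 0.0072 at 2 h against 1 h), but was still higher than at 0 h (2.32 ± 0.72, adjusted p = 0.00496), at 656% of that mean. At 6 h it was at 297%. That difference was not called over all libraries (1.28 ± 0.72, adjusted p = 0.108) but was without dKO replicate 2 at 0 h (adjusted p = 0.013) and in WT libraries alone (adjusted p = 2.67e-06). In dKO cells Nr4a1 rose at 1 h (3.20 ± 0.72, adjusted p = 0.00496, or 5.02 ± 0.27, adjusted p = 4.08e-14 without the 5 mismatched libraries). It fell to 2 h (-2.73 ± 0.72, adjusted p = 0.0433, or -2.44 ± 0.30, adjusted p = 2.32e-07 without the 5). The fall over all dKO libraries lost its call in 24 of 32 leave-outs, all 16 WT libraries among them (adjusted p 0.0501 to 0.203), and with a pseudocount of 0.1 or no filter (adjusted p = 0.051 and 0.0727).

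Nr4a3 (NOR-1) was the one member to peak at 2 h in WT cells. In dKO cells Nr4a3 had 23.5, 109, 36.9 and 17.003 RPKM at 0 h and 144, 201, 133 and 142 RPKM at 1 h. Nr4a3 then had 187, 18.1, 271 and 128 RPKM at 2 h and 139, 132, 179.6 and 191 RPKM at 6 h. The mismatched 0 h library and the mismatched 2 h library of replicate 2 lay outside the other libraries of their groups. In WT cells Nr4a3 had 45.6, 44.1, 60.9 and 44.3 RPKM at 0 h and 211, 178, 276 and 231 RPKM at 1 h. Nr4a3 then had 257, 303, 345 and 295 RPKM at 2 h and 155, 168, 179 and 192 RPKM at 6 h. WT libraries at 1 h were all above those at 0 h, and the 2 h libraries overlapped those at 1 h. In WT cells Nr4a3 rose at 1 h (2.18 ± 0.50, adjusted p = 0.00159) and was 616% of its 0 h mean at 2 h (2.62 ± 0.50, adjusted p = 5.53e-05) and 355% at 6 h (1.83 ± 0.50, adjusted p = 0.00202). Its steps from 1 to 2 h (0.43 ± 0.50, adjusted p = 0.502) and from 2 to 6 h (-0.79 ± 0.50, adjusted p = 0.198) were not called over all libraries. Both were in WT libraries alone (adjusted p = 0.00496 and 1.89e-05), and the second also without dKO replicate 2 at 2 h (adjusted p = 0.0403). In dKO cells it rose at 1 h (2.08 ± 0.50, adjusted p = 0.00569) and without the 5 mismatched libraries rose further to 2 h (0.69 ± 0.22, adjusted p = 0.00861). Over all libraries the dKO mean was lower at 2 h than at 1 h (-0.54).

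Nr4a2 (Nurr1), known best from dopamine neurons, was near the filter of 1 RPKM throughout. In dKO cells Nr4a2 had 0.341, 1.37, 0.517 and 0.349 RPKM at 0 h and 1.90, 0.988, 1.93 and 1.37 RPKM at 1 h. Nr4a2 then had 1.52, 0.418, 1.69 and 2.12 RPKM at 2 h and 2.78, 2.26, 2.41 and 0.927 RPKM at 6 h. The mismatched library at 0 h was the highest of its group and that at 6 h the lowest. In WT cells Nr4a2 had 0.657, 0.870, 1.16 and 0.510 RPKM at 0 h and 1.58, 2.23, 1.93 and 2.20 RPKM at 1 h. Nr4a2 then had 1.04, 1.32, 1.42 and 1.39 RPKM at 2 h and 1.99, 2.00, 1.87 and 1.92 RPKM at 6 h. In WT cells the 1 h libraries and the 6 h libraries were above the 0 h libraries, with a lower level at 2 h that overlapped 0 h. Nr4a2 rose at 1 h (0.95 ± 0.28, adjusted p = 0.00787) and stood higher at 6 h (0.94 ± 0.28, adjusted p = 0.00383), and its dip at 2 h was called in WT libraries alone (adjusted p = 0.00482, against 0.185 over all). In dKO cells it rose at 1 h (0.89 ± 0.28, adjusted p = 0.014), a call lost without replicate 1 or 4 at 0 h (adjusted p 0.0554 and 0.0569), and without the 5 mismatched libraries no dip was called (-0.08 ± 0.17, adjusted p = 0.703). Its entry overlaps the microRNA gene Mir684-1, and whether reads were counted by strand is not given in the sources used here.

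Myc, the transcription factor of cell growth, was the one member called lower in the first hour. In dKO cells Myc had 18.1, 7.62, 16.8 and 19.1 RPKM at 0 h and 5.64, 1.87, 6.20 and 6.60 RPKM at 1 h. Myc then had 1.71, 18.8, 1.24 and 1.52 RPKM at 2 h and 1.74, 1.64, 1.53 and 0.951 RPKM at 6 h. The mismatched replicate 2 at 2 h was as high as the matching libraries at 0 h. In WT cells Myc had 19.1, 16.005, 16.6 and 16.6 RPKM at 0 h and 4.63, 6.32, 4.71 and 5.80 RPKM at 1 h. Myc then had 1.43, 2.52, 1.67 and 1.43 RPKM at 2 h and 0.936, 2.05, 1.35 and 1.51 RPKM at 6 h. WT libraries at 0, 1 and 2 h did not overlap, each later time being lower, and those at 2 and 6 h did. In WT cells Myc fell at 1 h (-1.59 ± 0.47, adjusted p = 0.00845), to 31.4% of its 0 h mean. It fell again to 10.3% at 2 h (-1.39 ± 0.47, adjusted p = 0.0274 against 1 h). The second call was lost without replicate 2 or 4 at 1 h or replicate 1, 3 or 4 at 2 h of WT (adjusted p 0.0552 to 0.0664) and with quantile normalization (-0.99, adjusted p = 0.0547), and kept in WT libraries alone (adjusted p = 7.05e-07). The level at 6 h, 8.57% of that at 0 h, did not differ detectably from 2 h (-0.21 ± 0.47, adjusted p = 0.734). In dKO cells the fall at 1 h was -1.55 ± 0.47, adjusted p = 0.0127, lost without the mismatched replicate 2 at 1 h (-1.18, adjusted p = 0.0699), and -1.48 ± 0.17, adjusted p = 2.57e-08 without all 5 mismatched libraries. Without the 5 it fell again to 2 h (-1.76 ± 0.19, adjusted p = 2.04e-08).

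The IER genes had 3 different courses in the WT group means: Ier2 was highest at 1 h and lowest at 6 h, Ier5 was highest at 1 h and stayed above its 0 h mean, and Ier3 was lowest at 2 h and had regained part of its 0 h mean by 6 h. In dKO cells Ier2 had 59.4, 74.8, 60.4 and 43.6 RPKM at 0 h and 53.1, 18.2, 66.6 and 70.7 RPKM at 1 h. Ier2 then had 15.6, 45.0, 10.6 and 5.13 RPKM at 2 h and 5.24, 5.10, 4.97 and 11.3 RPKM at 6 h. The mismatched library at 1 h was the lowest of its group, and replicate 2 at 2 h the highest of its own. In WT cells Ier2 had 45.5, 44.0, 50.3 and 46.8 RPKM at 0 h and 67.3, 104, 70.5 and 77.0 RPKM at 1 h. Ier2 then had 13.6, 18.6, 17.3 and 17.7 RPKM at 2 h and 6.59, 8.36, 6.85 and 6.85 RPKM at 6 h. WT libraries did not overlap between any of the times, with the highest values at 1 h and the lowest at 6 h. The difference at 1 h was not called over all libraries (0.75 ± 0.40, adjusted p = 0.117) and was in WT libraries alone (adjusted p = 1.71e-05) and without dKO replicate 2 at 2 h (adjusted p = 0.0426). Ier2 fell from 1 to 2 h (-2.20 ± 0.40, adjusted p = 0.000559) and from 2 to 6 h (-1.17 ± 0.40, adjusted p = 0.0201), ending at 15.3% of its 0 h mean (-2.63 ± 0.40, adjusted p = 2.91e-06). In dKO cells it fell from 1 to 2 h (-1.68 ± 0.40, adjusted p = 0.032), and without the 5 mismatched libraries by 2.25 ± 0.17 (adjusted p = 8.58e-11). The call over all libraries was lost without replicate 1, 3 or 4 at 1 h or replicate 3 or 4 at 2 h (adjusted p 0.0711 to 0.205), and with no filter (adjusted p = 0.0533).

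Ier3 (IEX-1), a stress response protein and known target of NF-kappaB, was high from the start. In dKO cells Ier3 had 121, 145, 113 and 73.9 RPKM at 0 h and 146, 57.6, 113 and 129 RPKM at 1 h. Ier3 then had 62.7, 95.6, 50.9 and 188 RPKM at 2 h and 132, 132, 121 and 50.1 RPKM at 6 h. The mismatched libraries went against their groups, with 188 RPKM for replicate 4 at 2 h and 50.1 RPKM for replicate 4 at 6 h. In WT cells Ier3 had 134, 101, 111 and 97.4 RPKM at 0 h and 103, 123, 85.3 and 87.2 RPKM at 1 h. Ier3 then had 34.5, 31.8, 30.5 and 25.6 RPKM at 2 h and 67.9, 71.1, 83.0 and 68.8 RPKM at 6 h. WT libraries at 0 and 1 h overlapped, those at 2 h were all at most 34.5 RPKM, and those at 6 h lay between. In WT cells Ier3 fell from 1 to 2 h (-1.68 ± 0.32, adjusted p = 0.000779) and rose from 2 to 6 h (1.24 ± 0.32, adjusted p = 0.00308), the one member called higher over that interval. Against 0 h it differed by -0.16 ± 0.32, adjusted p = 0.674 at 1 h and by -0.60 ± 0.32, adjusted p = 0.0875 at 6 h, neither called over all libraries. In WT libraries alone it was called lower at 6 h (SE 0.12, adjusted p = 0.00014), as it was without the 5 mismatched libraries (adjusted p = 0.000264). Both differences were positive after median-of-ratios scaling (0.32 and 0.086), and the 6 h difference was called when dKO replicate 4 at 2 h was left out of the fit (adjusted p = 0.0471). In dKO cells without the 5 mismatched libraries it rose at 1 h (0.36 ± 0.16, adjusted p = 0.0443), fell to 2 h (-1.18 ± 0.18, adjusted p = 3.84e-06) and rose to 6 h (1.18 ± 0.18, adjusted p = 2.69e-06). Over all dKO libraries none of these steps was called (adjusted p = 0.875, 0.648 and 0.677).

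Ier5, a regulator of heat shock factor activity, was the steadiest member. In dKO cells Ier5 had 28.8, 69.0, 34.7 and 28.1 RPKM at 0 h and 62.8, 53.0, 64.3 and 69.8 RPKM at 1 h. Ier5 then had 49.1, 26.2, 50.5 and 59.5 RPKM at 2 h and 57.7, 58.6, 55.8 and 46.3 RPKM at 6 h. The mismatched library at 0 h was as high as the 1 h libraries, and replicate 2 at 2 h as low as the 0 h libraries. In WT cells Ier5 had 38.7, 39.2, 46.2 and 40.2 RPKM at 0 h and 73.6, 86.1, 74.5 and 72.0 RPKM at 1 h. Ier5 then had 51.4, 57.9, 55.0 and 55.2 RPKM at 2 h and 57.9, 62.5, 61.7 and 66.9 RPKM at 6 h. WT libraries at 1 h were all above those of the other times and those at 0 h all below. Ier5 rose at 1 h in WT cells (0.89 ± 0.20, adjusted p = 0.00154), to 187% of its 0 h mean, and was still 152% at 6 h (0.60 ± 0.20, adjusted p = 0.0105). The decline from 1 to 2 h was called in WT libraries alone (-0.48 ± 0.20 over all, adjusted p = 0.071; 6.24e-06 alone) and when the mismatched dKO replicate 2 at 0 h or at 2 h was left out (adjusted p = 0.0193 and 0.0226). In dKO cells it rose at 1 h (0.73 ± 0.20, adjusted p = 0.00905) and was higher at 6 h (0.54 ± 0.20, adjusted p = 0.0202). The second call was lost without replicate 1 or 4 at 0 h (adjusted p 0.0897 and 0.0959) and held without the 5 mismatched libraries (0.91 ± 0.08, adjusted p = 1.13e-10).

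Expressed as a speed, the first hour in WT cells brought 5.08 log2 units per hour for Nr4a1, 3.27 for Egr3 and 2.18 for Nr4a3, and between 0.33 and 1.04 for Egr1, Egr2, Nr4a2, Ier2 and Ier5. The second hour brought -3.97 for Egr2, -3.75 for Egr1, -3.13 for Egr3, -2.76 for Nr4a1 and -2.20 for Ier2. In these values the fall was steeper than the preceding change for Egr1, Egr2 and Ier2, about as steep for Egr3 and less steep for Nr4a1, differences that were not tested. From 2 to 6 h the steepest of the 10 was Egr3, at -0.56 log2 units per hour. With samples at only 0, 1, 2 and 6 h a peak between them is not seen, and these speeds are averages over each interval.

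A constant rate of loss from 1 to 2 h would give an apparent halving time, which lumps continued transcription with decay. It also holds the shift of all tested genes, as the values were not rescaled. Their median log2 change over that hour was -0.30 in WT cells, and -0.29 in dKO cells without the 5 mismatched libraries. From WT libraries alone the halving time was 15.1 min (95% interval 14.2 to 16.2) for Egr2. For Egr1 it was 15.99 min (95% interval 14.8 to 17.4). It was 19.1 min (95% interval 17.2 to 21.6) for Egr3 and 21.7 min (95% interval 19.1 to 25.1) for Nr4a1. Ier2 followed with 27.3 min (95% interval 24.5 to 30.7), Ier3 with 35.7 min (95% interval 31.1 to 42.0) and Myc with 43.2 min (95% interval 34.7 to 57.3). Ier5 and Nr4a2 were slow, at 126 and 128 min, and Nr4a3 did not fall. The log2 changes of Ier5 and Nr4a2 were -0.48 and -0.47, of which only -0.17 and -0.16 lay beyond the all-gene median. The intervals of neighbours in this order overlap, except between Ier2 and Ier3 and between Myc and Ier5. Overlap of intervals does not decide whether 2 members differ, and the order of the members was not tested. In dKO cells without the 5 mismatched libraries the halving times were 18.4 min (95% interval 16.1 to 21.3) for Egr2, 22.4 min (95% interval 18.7 to 27.9) for Egr3 and 22.5 min (95% interval 17.98 to 29.9) for Egr1. They were 24.6 min (95% interval 19.6 to 33.0) for Nr4a1 and 26.7 min (95% interval 23.0 to 31.7) for Ier2. Myc had 34.1 min (95% interval 28.02 to 43.7) and Ier3 50.8 min (95% interval 38.8 to 73.6) in dKO cells.

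**Figure D2:**
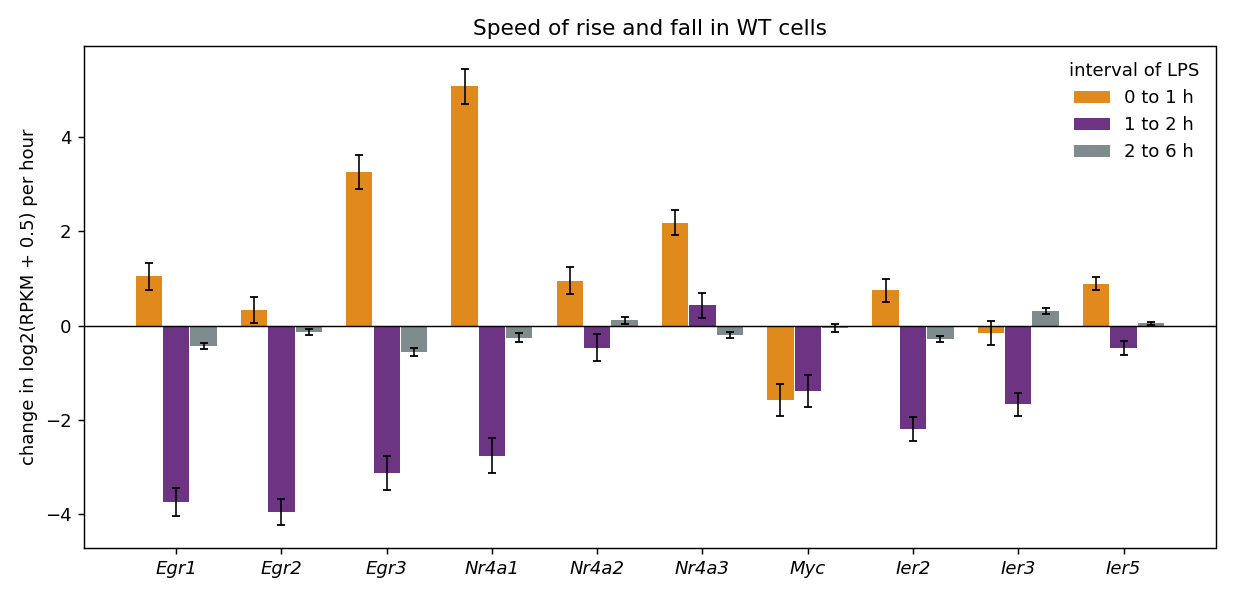
Change in log2(RPKM + 0.5) per hour in WT cells for each member over 0 to 1 h (orange), 1 to 2 h (purple) and 2 to 6 h (grey), from the fit of the 16 WT libraries, with bars for the 95% interval. The tallest orange bar is that of Nr4a1 at 5.08 and the deepest purple bar that of Egr2 at -3.97; Myc alone is negative in both of the first 2 hours with intervals clear of 0.

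In WT cells 7 of the 10 members had their highest group mean at 1 h, where 7.63% of the tested genes did, 1 at 2 h (6.75%), and 2 at 0 h (68.7%). None was highest at 6 h, where 16.95% of genes were. Egr1, Egr2, Egr3 and Ier2 were highest at 1 h and lowest at 6 h, a course shared by 4.83% of tested genes. Egr1, Egr2 and Ier2 were above their 0 h mean at 1 h and below it at 2 h, as 4.76% of tested genes were. These patterns are descriptions of group means and carry no test. The members were chosen with earlier results of these data known, so the shares are no test of an excess.

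**Figure D3:**
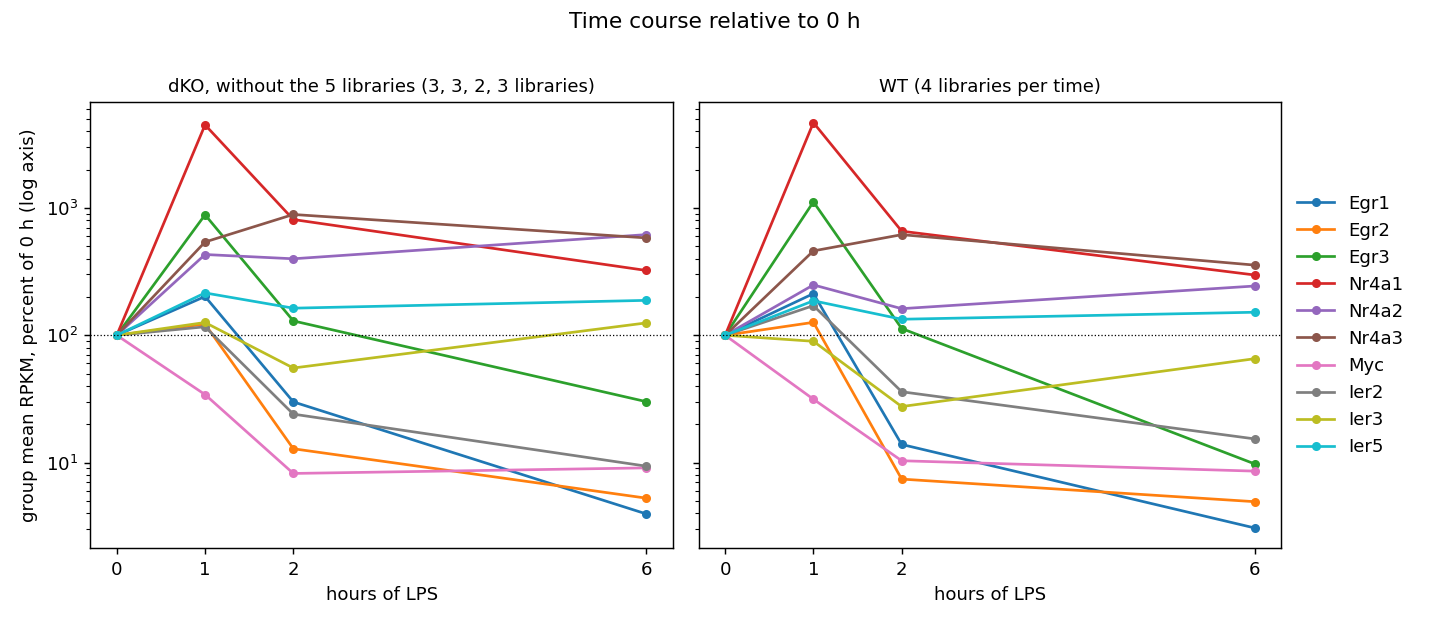
Group mean RPKM as a percent of the 0 h mean (log axis) by hours of LPS, in dKO cells without the 5 mismatched libraries (left, 3, 3, 2 and 3 libraries) and in WT cells (right, 4 libraries per time). In WT cells Nr4a1 reaches 4673% at 1 h and Egr1 drops to 3.07% at 6 h, while Nr4a3 stays at 355%.

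The comparison of genotypes asks whether cells without the immunoproteasome subunits had other levels of these mRNAs at each time, and over all libraries 2 of the members differed, both at 2 h. At 2 h Ier3 was higher in dKO cells, with 62.7, 95.6, 50.9 and 188 RPKM in dKO libraries, against 34.5, 31.8, 30.5 and 25.6 RPKM in WT libraries. The groups did not overlap, the difference was 1.502 ± 0.32, adjusted p = 0.00167, and without the mismatched replicates 2 and 4 it was 0.88 ± 0.17, adjusted p = 0.00025. Nr4a3 was lower at 2 h (-1.51 ± 0.50, adjusted p = 0.0469), a call that was lost in 25 of 32 leave-outs, all 16 WT libraries among them, and the difference was -0.68 with adjusted p = 0.219 without the mismatched dKO replicate 2 at 2 h. Without all 5 mismatched libraries Nr4a3 at 2 h was not called (-0.41 ± 0.21, adjusted p = 0.144). The 2 h counts, 1 higher and 1 lower, stand against 5.15% and 7.24% of all tested genes, 12.4% in all. Egr2 at 2 h differed by 1.41 ± 0.57, adjusted p = 0.105, and was called without dKO replicate 2 at 1 h or without replicate 3 or 4 at 2 h (adjusted p 0.0324 to 0.0371).

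At 0, 1 and 6 h limma called none of the 10 members over all libraries, and none had an unadjusted p under 0.05, where 6.84%, 10.9% and 14.8% of genes were called. In dKO cells 0.932% of genes were higher and 5.91% lower at 0 h, 1.84% and 9.02% at 1 h, and 4.55% and 10.2% at 6 h. The dKO libraries did not overlap the WT libraries for Ier5 at 1 h (53.0 to 69.8 RPKM in dKO, 72.0 to 86.1 RPKM in WT) and for Egr3 at 6 h (0.618 to 1.49 RPKM in dKO, 0.0817 to 0.411 RPKM in WT). Groups also failed to overlap for 26.4% of tested genes in the lower direction at 1 h, 6.01% in the higher direction at 2 h and 8.09% in the higher direction at 6 h. A 2-sided exact permutation test gave p = 0.0286 for these 2 and for Ier3 at 2 h, the smallest p that 4 against 4 libraries allow, among 40 such tests. Of the genes called between genotypes 13.6%, 16.9%, 41.6% and 30.7% were higher in dKO cells at 0, 1, 2 and 6 h, against 36.9%, 40.1%, 46.8% and 50.6% with median-of-ratios scaling and 43.6%, 42%, 53.9% and 46.9% with quantile normalization. The median log2 difference of all tested genes was -0.19, -0.18, 0.090 and -0.15 at those times.

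Without the 5 mismatched libraries more members passed, 3 at each time, as did more genes in general. At 0 h, where 6.75% of genes were higher and 19.4% lower in dKO cells, 3 members were lower. Nr4a3 had 25.8 ± 10.2 RPKM in dKO cells (SD, n = 3) and 48.7 ± 8.13 RPKM in WT cells (SD, n = 4; -0.96 ± 0.18, adjusted p = 0.000305). The others were Nr4a2 (-0.51 ± 0.14, adjusted p = 0.00843) and Ier5 (-0.42 ± 0.07, adjusted p = 0.000112). At 1 h (9.8% and 29.4% of genes) Nr4a3 (-0.67 ± 0.18, adjusted p = 0.00582) and Ier5 (-0.22 ± 0.07, adjusted p = 0.0223) were lower and Ier3 higher (0.38 ± 0.15, adjusted p = 0.0429). At 2 h (9.29% and 23.8%), with 2 dKO libraries, Ier3, Egr2 (0.82 ± 0.21, adjusted p = 0.00372) and Egr1 (0.81 ± 0.31, adjusted p = 0.045) were higher. The 2 dKO libraries that give the EGR result had 14.5 and 7.04 RPKM for Egr2, against 4.67 to 6.23 RPKM in WT, and 10.5 and 6.18 RPKM for Egr1, against 4.12 to 4.56 RPKM in WT. At 6 h (13.9% and 33%) Ier3 (0.82 ± 0.15, adjusted p = 8.15e-05) and Egr3 (0.86 ± 0.22, adjusted p = 0.00213) were higher and Ier2 lower (-0.45 ± 0.14, adjusted p = 0.0138). At that time Ier3 had 132, 132 and 121 RPKM in the matching dKO libraries, against 67.9, 71.1, 83.0 and 68.8 RPKM in WT libraries, and Ier2 had 5.24, 5.10 and 4.97 RPKM, against 6.59 to 8.36 RPKM in WT. Ier3 was thus higher in dKO cells at 1, 2 and 6 h and Nr4a3 lower at 0 and 1 h in the matching libraries. Myc and Nr4a1 were called at no time in either fit.

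**Figure D4:**
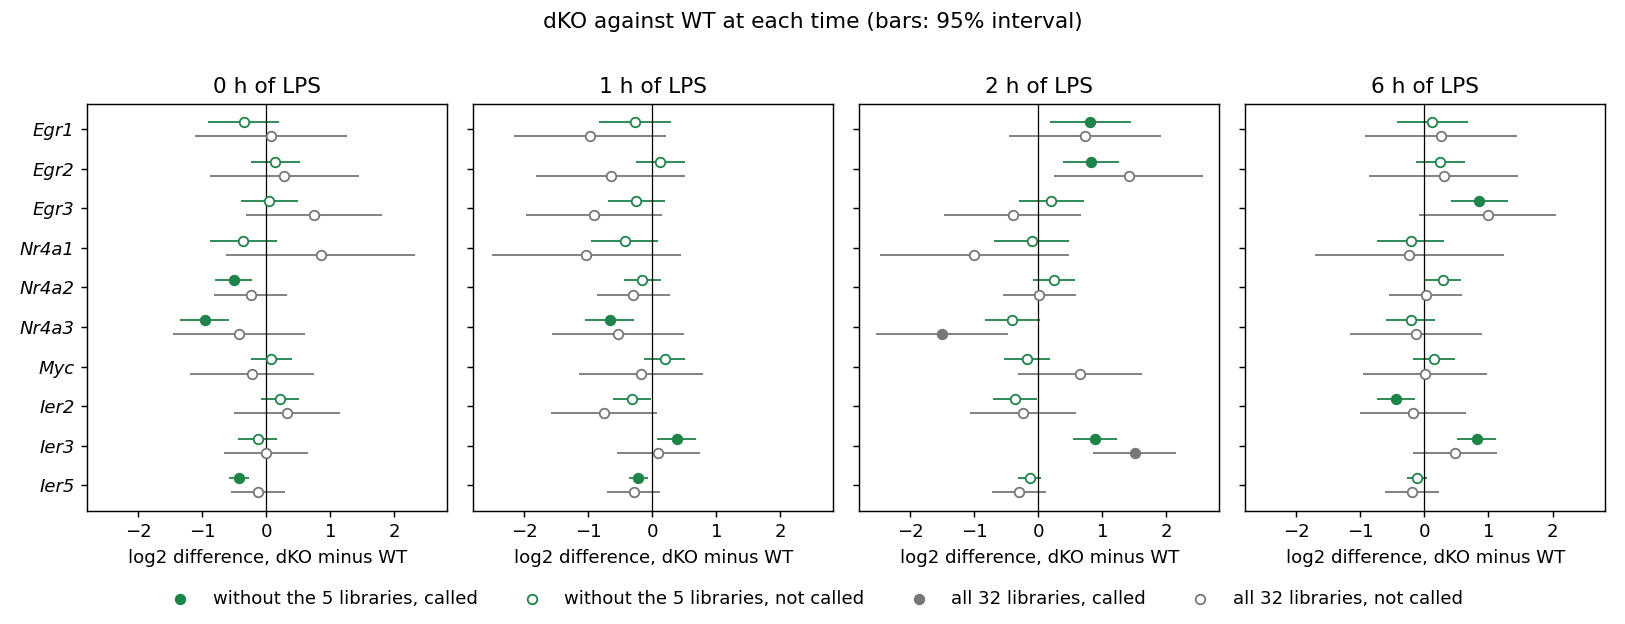
Log2 difference of mean log2(RPKM + 0.5), dKO minus WT, for each member at 0, 1, 2 and 6 h of LPS, without the 5 mismatched dKO libraries (green) and over all 32 libraries (grey), with bars for the 95% interval and filled circles for an adjusted p under 0.05. Green intervals are shorter than grey ones for each member, and Ier3 is the one gene filled in both colours, at 2 h.

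The marker genes differed between genotypes as well. The summed RPKM of 6 measured of 7 listed granulocyte markers was 198 to 398 in dKO, against 551 to 706 in WT, at 0 h and 350.3 to 438 against 818 to 1231 at 1 h. It was 223 to 386 in dKO, against 892 to 1158 in WT at 2 h and 214 to 391 against 406 to 619 at 6 h, so the groups overlapped at no time. The 5 macrophage markers summed to 624 to 1414 in dKO, against 525 to 572 in WT, at 0 h and to 1411 to 1590 against 1014 to 1206 at 1 h. They summed to 605 to 1434 in dKO, against 991 to 1156 in WT, at 2 h and 555 to 1454 against 377 to 494 at 6 h. The 8 dendritic cell markers summed to 13390 to 14719 in dKO, against 15518 to 17343 in WT, at 6 h. At the other times the dendritic sums overlapped. All these ranges include the mismatched dKO libraries. S100a9 and Cd14 had the highest medians of the granulocyte and macrophage markers over all libraries, 198 and 526 RPKM. The granulocyte genes Elane and Mpo were near 0, at 0.369 and 0.222 RPKM. Their part in the genotype differences was not tested, and in these bulk samples fewer cells of a type and less RNA per cell cannot be told apart.

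Whether the response to LPS itself differed was tested as the difference of the changes from 0 h, dKO minus WT. Over all libraries limma called no member at 1, 2 or 6 h, where 0.0359%, 0.305% and 0.923% of genes were called, and 1, 1 and 0 members had an unadjusted p under 0.05. The nearest was Ier3 at 2 h (1.51 ± 0.45, adjusted p = 0.173), which was called without dKO replicate 3 at 2 h (1.76, adjusted p = 0.0408). Without the 5 mismatched libraries none was called at 1 h (2 with an unadjusted p under 0.05; 1.8% of genes called). At 2 h (5.62%) Ier3 (1.02 ± 0.22, adjusted p = 0.00631) and Nr4a2 (0.74 ± 0.21, adjusted p = 0.0375) had a more positive change in dKO cells. At 6 h (20.3%) Ier3 (0.95 ± 0.21, adjusted p = 0.00189), Nr4a2 (0.79 ± 0.20, adjusted p = 0.00575), Nr4a3 (0.75 ± 0.26, adjusted p = 0.0446) and Ier5 (0.31 ± 0.11, adjusted p = 0.0393) had a more positive change. Ier2 had a more negative one (-0.65 ± 0.20, adjusted p = 0.0245). For Nr4a2, Nr4a3 and Ier5 the dKO level at 0 h was the lower one, and at 6 h their dKO and WT levels were not called different.

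The speed of the fall after 1 h was compared between genotypes in the same way, with a contrast added after the data were seen. The change from 1 to 2 h was less negative in dKO cells by 2.06 ± 0.80, adjusted p = 0.316 for Egr2, 1.70 ± 0.82, adjusted p = 0.321 for Egr1 and 1.41 ± 0.45, adjusted p = 0.316 for Ier3. None of them was called by limma, though these 3 had an unadjusted p under 0.05. Of all tested genes 0.0179% were called. Without the 5 mismatched libraries the differences were 1.08 ± 0.41, adjusted p = 0.213 for Egr1 (95% interval 0.24 to 1.92), 0.70 ± 0.28, adjusted p = 0.246 for Egr2 (0.12 to 1.28) and 0.50 ± 0.22, adjusted p = 0.314 for Ier3 (0.04 to 0.96). Again none was called, where 1.11% of genes were. No member was called for the change from 2 to 6 h either, over all libraries (1 member with an unadjusted p under 0.05; 0.359% of genes called) or without the 5 (0 members; 9.22%).

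Other genes of the same pathways were followed from lists, in WT cells and over all libraries, beside the shares of all genes given above. The lists too were chosen with earlier results of these data known, so their counts are no test of an excess. Of 27 other immediate early genes 21 were higher and 4 lower at 1 h, with a median of 1.99 (all tested genes -0.42), and 1 was higher and 9 lower from 1 to 2 h, with a median of -0.80 (all -0.30). Among them Trib1 fell by 3.00 ± 0.38 (adjusted p = 3.64e-05) and Btg2, an antiproliferative gene, by 2.15 ± 0.31 (adjusted p = 7.77e-05) in the second hour, while Rhob, a small GTPase, rose (1.12 ± 0.20, adjusted p = 0.00045). Of the 8 AP-1 subunits 4 were higher at 1 h (median 0.90) and 5 lower from 1 to 2 h (median -1.16), Fosb by -2.37 ± 0.36, adjusted p = 0.000135 and Junb by -1.16 ± 0.26, adjusted p = 0.00306. Serum response factor (Srf) and its cofactors, 6 genes, had none higher and 2 lower at 1 h (median -0.22) and 3 lower from 1 to 2 h, with Srf at -0.99 ± 0.20, adjusted p = 0.00117.

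Of the EGR corepressors, Nab1 rose at 1 h (0.65 ± 0.12, adjusted p = 0.000281), while Nab2 differed by 0.23 ± 0.17, adjusted p = 0.252. Both fell from 1 to 2 h (-0.36 and -0.55; adjusted p = 0.0269 and 0.0202), and Nab2 was lower at 6 h than at 0 h (-1.42 ± 0.17, adjusted p = 1.65e-07). Egr4, the remaining EGR gene, did not reach the filter, nor did Rxrg. The NR4A partners Rxra and Rxrb, retinoid X receptors that form heterodimers with Nr4a1 and Nr4a2, were lower at 1 h (-1.13 ± 0.36, adjusted p = 0.0131 and -0.94 ± 0.28, adjusted p = 0.00802). They were lower at 6 h as well (-2.60 ± 0.36, adjusted p = 8.83e-07 and -0.72 ± 0.28, adjusted p = 0.0198). Of the AU-rich element binding proteins and decay factors, 9 genes, 3 were higher and 4 lower at 1 h and 5 lower from 1 to 2 h. Tristetraprolin (Zfp36) rose at 1 h (2.22 ± 0.48, adjusted p = 0.001) and fell to 2 h (-2.72 ± 0.48, adjusted p = 0.00045), the sixth steepest fall of all tested genes. The IER relatives Ier5l and Ier3ip1 were both lower at 1 h (-2.17 ± 0.37, adjusted p = 0.000156 and -0.69 ± 0.14, adjusted p = 0.00051).

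Around Myc, the MYC paralogues, MAX and the proteins that bind MAX had 1 higher and 4 lower of 9 tested at 1 h and 2 higher and 6 lower at 6 h, with a median of -0.66 against -0.65 for all genes. Max, the partner of MYC, was lower at 1 h (-0.79 ± 0.22, adjusted p = 0.00663) and higher at 6 h (1.06 ± 0.22, adjusted p = 0.000145), as was Mxd1, a MAX-binding repressor, at 6 h (2.23 ± 0.43, adjusted p = 4.68e-05). Mycl1, the MYC paralogue known from mouse dendritic cells, was lower (-2.72 ± 0.39, adjusted p = 1.06e-06). Of 22 classical MYC targets of growth and ribosome production 2 were higher and 10 lower at 1 h (median -0.44), and 1 was higher and 19 lower at 6 h (median -1.52, against 60.9% of all genes lower and a median of -0.65). Cad, the enzyme that starts pyrimidine synthesis, was lower by 3.04 ± 0.35 at 6 h (adjusted p = 1e-07). Ncl, nucleolin, was lower by 0.92 ± 0.13 (adjusted p = 8.16e-07). The higher one was Ccnd2, cyclin D2 (3.77 ± 0.45, adjusted p = 1.39e-07).

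The genes whose log2(RPKM + 0.5) was most like a member over the 32 libraries were looked for among 2463 candidates, with Pearson's r as the measure. The libraries share groups and depth, so r is a description without a test. For Nr4a1 they were Dcun1d3 (r = 0.981), Prdm1 (0.978) and Kdm6b (0.972). For Egr1 they were Irs2 (0.967), Hs3st3b1 (0.965) and Tcf7l2 (0.958), and for Ier2 Irs2 (0.985), Tcf7l2 (0.973) and Hs3st3b1 (0.9701). For Egr2 they were Tex2 (0.982), Tiam2 (0.978) and Adcy9 (0.973), for Egr3 Kcnj2 (0.974), Spata13 (0.962) and Stk38l (0.961), and among those for Nr4a3 Tnfsf4 (0.979) and Fnbp1l (0.963). For Myc they were Dgkz (0.981), Samd1 (0.981) and Slc36a1 (0.980), for Ier5 Pde4b (0.955), Ankrd33b (0.933) and Rel (0.923), and for Nr4a2 Cd83 (0.9002), Pde4b (0.879) and Ankrd33b (0.879). Ier3 stood apart with no r above that of Rnf217 at 0.852, followed by Vegfa and Ddit4. Among the members the closest pairs were Egr1 with Ier2 (r = 0.974), Egr1 with Egr2 (0.963) and Egr2 with Ier2 (0.950), and the most opposed was Nr4a3 with Myc (-0.821).

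In the coordinates of the files, on mm9, the members lie on 9 chromosomes, and only Nr4a1 and Myc share one: Egr2 at chr10:67000617-67004936, Egr3 at chr14:70477252-70479964, Nr4a1 at chr15:101097277-101105225, Nr4a2 at chr2:56959637-56976414, Nr4a3 at chr4:48064120-48096224. Myc is at chr15:61816896-61821916, Ier2 at chr8:87185230-87186751, Ier3 at chr17:35958658-35959856, Ier5 at chr1:156943497-156946766 and Egr1 at chr18:35020861-35024610. These are the spans of whole genes, exons, introns and UTRs together.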

How the data were processed

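RNA was extracted with Trizol and libraries were made from 4 µg of total RNA with the TruSeq RNA kit, per the labels' protocols. The authors deposited 1 table per library with 1 row for each of 22216 genes and 92 spike-in entries, on mm9 coordinates, and CASAVA 1.8.2 is named in the submitters' processing notes; the counting rules and use of strand are not given in the sources used here. The RPKM values were used as the authors deposited them. A second column of the authors, a signal that appears to hold aligned bases per gene, served only to give the depth.

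All comparisons were fitted with limma 3.58.1 in R 4.3.3 (trend option) on log2(RPKM + 0.5), for 11154 genes with at least 1 RPKM in at least 4 libraries, as means of the 8 groups with a shared spread (residual df 24, prior df 3.55). The fit held 19 contrasts, 2 of them (differences between genotypes of the changes from 1 to 2 h and 2 to 6 h) added after the data were seen. P-values were adjusted within each contrast by Benjamini-Hochberg, and a gene was called below 0.05. Single members were also compared by exact permutation of 4 against 4 libraries (70 splits, 2-sided). Each choice was also varied alone: the pseudocount (0.1, 1), the scaling (quantile, or median of ratios), the filter (none, or 5 RPKM), a replicate block, and each library left out. A fit of the 27 libraries that are not mismatched (residual df 19, prior df 5.10) and one of the 16 WT libraries (12, 4.99) were added after the data were seen. The fit was also run on simulated data with independent normal residuals, each gene having the same spread in all 8 groups. That setting holds no mismatched libraries, so it does not test the calls made here. The members and gene lists were chosen with earlier results of these data known. Genes named from the lists were, per list and comparison, up to 4 of the lowest adjusted p and any list gene that a statement needed, whose values were known when they were chosen. Likeness was searched over tested genes whose highest and lowest group means differed by at least 2 on the log2 scale. Part of that search is not reported here. Python 3.11.15, pandas 2.3.3, numpy 2.4.6 and matplotlib 3.10.9 were used for tables and figures.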

Additional observations from a re-analysis of the deposited data

Results flagged for a closer look

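In 13 of the 80 combinations of a member and a group 1 library stood far from the other 3 by Dixon's test. About 1 in 20 would for independent groups of normal values. The combinations share libraries and RPKM was not log-transformed here, so the 13 are no test of an excess. Of the 13, 8 were in mismatched dKO libraries. In dKO cells these were Egr3 at 23.2, Nr4a1 at 38.9 and Ier5 at 69.0 RPKM in replicate 2 at 0 h, Nr4a3 at 201 RPKM in replicate 2 at 1 h, Egr2 at 90.1 and Myc at 18.8 RPKM in replicate 2 at 2 h, and Ier2 at 11.3 and Ier3 at 50.1 RPKM in replicate 4 at 6 h. In WT cells they were Egr1 at 96.3 RPKM in replicate 2 at 1 h, Egr3 at 4.54 RPKM in replicate 2 at 2 h, Nr4a1 at 1.86 and Nr4a3 at 60.9 RPKM in replicate 3 at 0 h, and Ier2 at 8.36 RPKM in replicate 2 at 6 h.

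The response to LPS differed between genotypes by the test of the difference itself for 5 members without the 5 mismatched libraries, and for none over all libraries. Without the mismatched libraries 5.62% of all tested genes were called at 2 h and 20.3% at 6 h, against 0.305% and 0.923% over all libraries. At 2 h the dKO response exceeded the WT response by 0.74 for Nr4a2 and 1.02 for Ier3, in log2 units. At 6 h it did so by 0.79 for Nr4a2, 0.75 for Nr4a3, 0.95 for Ier3 and 0.31 for Ier5, and was below it by a difference of -0.65 for Ier2. What sets the mismatched libraries apart was not tested.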

How the results depend on the processing

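The counts of members called changed most when the 5 mismatched libraries were left out. The share of all tested genes called, in brackets, rose with them. Between genotypes none became 3 at 0 h (6.84% to 26.2% of genes), 1 h (10.9% to 39.2%) and 6 h (14.8% to 46.9%). In WT cells between 2 and 6 h 4 became 9 (45.6% to 74.2%), and 9 in WT libraries alone (75%). In dKO cells 3 became 9 between 1 and 2 h (2.17% to 64%). Between 2 and 6 h in dKO cells none became 9 (0% to 67.3%). For the response none became 2 at 2 h (0.305% to 5.62%) and 5 at 6 h (0.923% to 20.3%). Between genotypes at 2 h the 2 members became 1 with no filter, with the replicate block and with either other scaling (quantile or median of ratios). In dKO cells between 1 and 2 h the 3 became 5 with median-of-ratios scaling, 1 with no filter and 0 with the replicate block. Leaving out 1 library gave 1 to 3 members between genotypes at 2 h, 0 to 6 in dKO cells between 1 and 2 h, 0 to 4 between 2 and 6 h, and 0 to 1 for the response at 2 h. The other counts of members stayed within 1.5 times under all settings run.

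Of 190 member values 11 turned their sign with median-of-ratios scaling, 4 with quantile normalization and 3 with each other pseudocount. With median-of-ratios scaling these were Ier3 at 1 and 6 h in WT (0.32 and 0.086) and at 1, 2 and 6 h in dKO (0.41, 0.16 and 0.53). Ier2 at 1 h in dKO (0.13) turned too. Between genotypes they were Ier3 and Ier5 at 0 h (0.20 and 0.073) and Nr4a3 at 6 h (0.037). The last were Egr2 in the response at 6 h (-0.028) and Nr4a1 in the difference from 1 to 2 h (-0.21). With quantile normalization they were Nr4a2 between genotypes at 0 h (0.18) and in the response at 2 h (-0.18). Myc between genotypes at 1 h (0.061) and Nr4a1 in the difference from 1 to 2 h (-0.17) also turned. Without the 5, 33 of all 190 member values turned their sign; those called in either fit were Ier3 in dKO at 1 and 6 h (0.36 and 0.35), Nr4a3 in dKO from 1 to 2 h (0.69) and from 2 to 6 h (-0.60), and Ier5 in the response at 6 h (0.31). Among the uncalled ones were Egr2 at 1 h in dKO (0.31) and, between genotypes at 0 h, Egr1 and Nr4a1 (-0.36 each). Single libraries turned the sign of Ier5 between genotypes at 0 h (-0.42 to 0.0027), Ier3 between genotypes at 1 h (-0.061 to 0.38), Egr3 at 2 h in WT (-0.022 to 0.21), and in dKO of Egr1 and Egr2 at 1 h (-0.42 to 0.70 and -0.90 to 0.17), Ier3 at 1 h (-0.25 to 0.22) and 6 h (-0.31 to 0.22), Nr4a1 at 2 h (-0.12 to 1.68) and 6 h (-0.40 to 1.41), Nr4a3 from 1 to 2 h (-1.001 to 0.29) and 2 to 6 h (-0.24 to 1.05), Nr4a1 and Ier3 from 2 to 6 h (-0.75 to 0.16 and -0.038 to 0.59), and in the response at 6 h of Nr4a3 (-0.046 to 0.83) and Ier5 (-0.19 to 0.23). The cause was not tested.

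Of 11154 genes the calls between genotypes, 763, 1211, 1381 and 1649 at 0, 1, 2 and 6 h, became 2920, 4368, 3689 and 5233 without the 5, 472 at 0 h with the filter at 5 RPKM, and 2109 at 2 h with quantile normalization. Against 0 h, the 5837 calls at 1 h in WT became 3152 with median-of-ratios scaling, 8888 without the 5 and 8992 in WT alone; in dKO the 5565 at 1 h became 2678 with median-of-ratios scaling, 2979 with quantile normalization and 8621 without the 5, and the 7021 at 2 h became 4520 and 4522 with the 2 scalings. From 1 to 2 h the 3664 calls in WT became 2324 with the replicate block, 8001 without the 5 and 8101 in WT alone, and the 242 in dKO became 386 with median-of-ratios scaling, 516 with quantile normalization, 97 with no filter, 0 with the block and 7139 without the 5. Leaving out 1 library gave 506 to 1276, 835 to 1986, 969 to 2247 and 1093 to 2451 calls between genotypes, 2567 to 7072 at 1 h in dKO, and from 1 to 2 h 0 to 4031 in dKO and 2387 to 5268 in WT. It gave 0 to 4155 from 2 to 6 h in dKO, and 4 to 7, 14 to 164 and 56 to 198 for the response. From 2 to 6 h the 5086 in WT became 8274 and 8367, and the 0 in dKO became 7506 without the 5. The response calls, 4, 34 and 103 at 1, 2 and 6 h, ran from 1 to 16, 15 to 80 and 55 to 187 under the other settings, leave-outs aside, and were 201, 627 and 2263 without the 5. The interval contrasts, 2 and 40, ran from 0 to 8 and 11 to 98, and were 124 and 1028 without the 5.

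The replicate numbers did not pair the genotypes: 1 of 16 same-numbered pairs had deviations correlated above 0.1, and 4 of 16 dKO libraries were nearest to the WT library of their own number. Between times, 5 of 24 same-numbered pairs in dKO and 16 of 24 in WT were correlated above 0.1. Under the block Myc lost its call from 1 to 2 h in WT (adjusted p = 0.0622). With median-of-ratios scaling Ier2 lost its call at 2 h in WT (-0.67, adjusted p = 0.101). The block changed no other count of members by more than 1.5 times. Depth in reads is unknown. Values near the filter of 1 RPKM are those of Nr4a2, of Nr4a1 at 0 h, of Egr1 and Egr3 at 6 h and of Myc at 2 and 6 h, and there the log2 scale depends on the pseudocount: the rise of Nr4a1 at 1 h in WT was 5.46 with 0.1 and 4.73 with 1.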
